A study of Homo sapiens with 18 samples.

Results

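The 10 genes described here belong to the Hippo pathway, the signalling system that controls the transcriptional coactivators YAP and TAZ. They were listed by name from the expression table: the coactivator genes YAP1 and WWTR1 (which encodes TAZ), the DNA-binding partners TEAD1 and TEAD4, the target genes CTGF, CYR61 and ANKRD1, and the regulators AMOTL1, AMOTL2 and LATS2. They are 10 of the 23621 genes in the table, and 8 of them passed the filter on low values that left 12771 genes for testing. CTGF was listed because its level had been seen to differ between the drugs after 6 h, so its values at 6 h are given as a description with no test.

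The cells were GIST-T1, an established human cell line of gastrointestinal stromal tumour that depends on the receptor tyrosine kinase KIT. Each of 6 groups held 3 libraries: cells given the solvent DMSO, imatinib for 6 h, JQ1 for 6 h, imatinib for 24 h, JQ1 for 24 h, or both drugs for 24 h, each drug at 500 nM. Imatinib inhibits KIT and related kinases, and JQ1 displaces BET bromodomain proteins from acetylated chromatin. The labels give no time for DMSO, so the same 3 DMSO libraries were the reference at both times and the comparisons with DMSO share them. All groups are of this single line, and no label states that libraries of 1 group are separate cultures, so p-values measure only the spread between these libraries.

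In the Hippo pathway a kinase cascade ends in LATS1 and LATS2, which phosphorylate YAP and TAZ and keep them out of the nucleus. When the cascade is quiet, YAP and TAZ enter the nucleus and bind TEAD factors, which contact DNA. CTGF and CYR61, secreted matricellular proteins of the CCN family, are the targets most often used to read this activity, and ANKRD1 is another. AMOTL2 and LATS2 are targets as well as inhibitors, so they can act as negative feedback.

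TEAD factors recognise the letters GGAATG or the complement CATTCC, so the 250 bases before the annotated start of each gene were searched for both. RefSeq (GRCh38.p14) promoters were matched for 7 of the 10 genes, with 9 starts in all. The promoters of CTGF, ANKRD1 and AMOTL2 are shown because they hold matches while their genes had very different levels in these cells. Capitals mark each match, and each run reads 5′ to 3′ on the strand of the gene and ends at the base before its start.
CTGF, chr6:131951373-131951622, minus strand: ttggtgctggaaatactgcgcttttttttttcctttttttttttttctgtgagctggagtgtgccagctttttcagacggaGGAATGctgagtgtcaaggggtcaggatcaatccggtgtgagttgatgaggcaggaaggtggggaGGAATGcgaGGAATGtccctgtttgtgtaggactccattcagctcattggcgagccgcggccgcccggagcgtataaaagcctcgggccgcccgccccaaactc
ANKRD1, chr10:90921088-90921337, minus strand: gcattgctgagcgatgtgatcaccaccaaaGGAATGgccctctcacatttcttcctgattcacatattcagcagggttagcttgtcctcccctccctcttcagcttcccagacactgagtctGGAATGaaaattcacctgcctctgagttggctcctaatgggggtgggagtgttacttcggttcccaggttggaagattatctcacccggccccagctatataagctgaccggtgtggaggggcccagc
AMOTL2, chr3:134374448-134374697, minus strand: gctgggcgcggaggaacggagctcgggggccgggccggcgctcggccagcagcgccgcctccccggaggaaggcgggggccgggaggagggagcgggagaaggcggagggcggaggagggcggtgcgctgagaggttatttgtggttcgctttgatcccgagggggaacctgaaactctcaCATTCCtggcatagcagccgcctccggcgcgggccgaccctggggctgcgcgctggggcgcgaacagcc

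The CTGF promoter held 3 matches, whose first bases lay 169, 104 and 95 bases before the start. ANKRD1 held 2 matches, at 220 and 128 bases before its start. AMOTL2 held 1 match in the reverse orientation at the start shown, 69 bases before it, and 0 at its other start. YAP1 held 1 match, 162 bases before its start, and AMOTL1, LATS2 and both starts of WWTR1 held 0. CYR61, TEAD1 and TEAD4 had no entry. Over all 35116 RefSeq promoters of that length, 11.9% held at least 1 match, 0.94% at least 2 and 0.0826% at least 3. A match is a run of letters and not a measured binding site.

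Values are labelled FPKM, by definition fragment counts scaled to transcript length and to the number of mapped reads. Scaling to length allows levels of different genes to be compared. The totals given below differ widely between libraries while the spike-ins are level, so the values are not scaled to mapped reads alone. The number of reads behind each value is unknown because the table holds no counts. The authors added ERCC spike-in RNA by cell number, and the spike-ins sat at the same level in every library to between -0.019 and 0.038 on the log2 scale, while total FPKM ran from 286566 to 2463615. On this scale most genes were lower in every drug group than in DMSO, and the typical (median) log2 change was -0.69 with imatinib and -1.0 with JQ1 at 6 h, -1.5 and -1.49 at 24 h, and -2.05 with both. Values are also given after a rescaling that sets the typical gene of each library equal (ratio rescaling), which brings these medians to between -0.01 and 0.02. In RNA from whole cultures, fewer cells of a kind and less RNA per cell cannot be told apart. All 7 GIST markers examined reached 1 FPKM in DMSO, and KIT itself stood at 644 ± 125 FPKM (SD, n = 3). Of the other cell types, 0 of 4 endothelial, 1 of 4 smooth muscle and 1 of 5 leukocyte markers reached 1 FPKM in DMSO, while 3 of 5 epithelial markers and 3 of 4 fibroblast markers did, among them KRT18, DCN and LUM. The summed level of the epithelial markers ran from 416 to 663 FPKM in DMSO and from 16.5 to 29.4 with both drugs, and that of the fibroblast markers from 972 to 1420 and from 246 to 406; their part in the results below was not tested.

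WWTR1 had more RNA than YAP1 in these cells. In DMSO, WWTR1 was the most abundant of the 10 genes, at 108 ± 20.3 FPKM (SD, n = 3), followed by LATS2 at 61.1 ± 10.9, YAP1 at 41.2 ± 7.81 and AMOTL2 at 38.4 ± 8.89. TEAD4 stood at 21.8 ± 4.50, CTGF at 19.8 ± 4.84, TEAD1 at 18.6 ± 3.86 and CYR61 at 16.1 ± 3.62, and the libraries of these last 4 genes overlapped. ANKRD1, a cardiac and muscle ankyrin repeat protein much used as a YAP reporter, lay between 0.0896 and 0.153 FPKM over all 18 libraries, and AMOTL1, a junctional angiomotin that binds YAP, between 0.0887 and 0.130. The lowest value of any gene in a library ran from 0.0383 to 0.108 FPKM, so these 2 genes lay close to the bottom of the table's range. Neither passed the filter, and neither was tested.

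**Figure D1:**
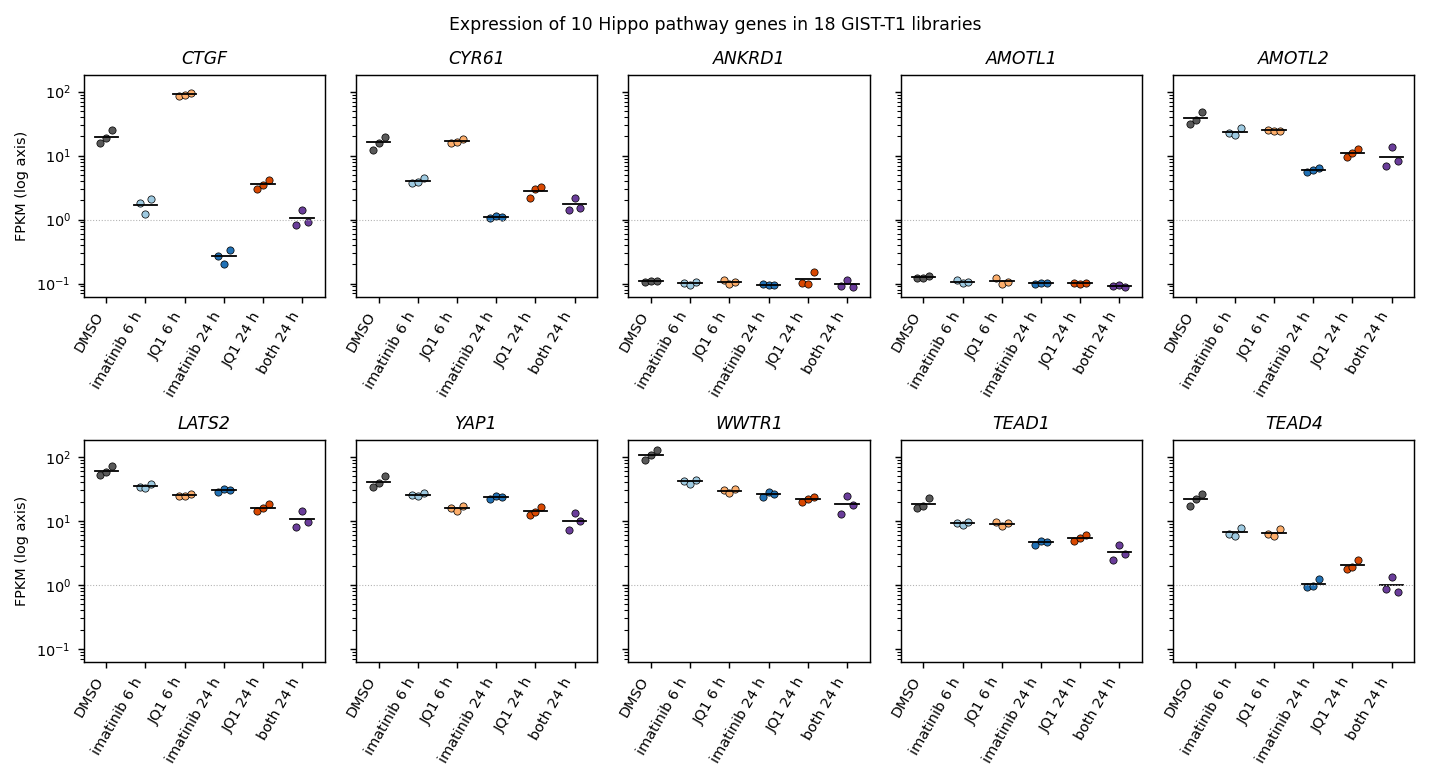
FPKM (log axis) of the 10 genes in the 18 libraries; points are libraries, bars are group means of 3, and the dotted line is 1 FPKM. CTGF spans 0.201 to 95.9 FPKM and lies above DMSO after 6 h of JQ1, while ANKRD1 and AMOTL1 stay near 0.1 FPKM in every group.

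CTGF had the widest range of the 10 genes. In DMSO its libraries read 15.6, 18.7 and 25.1 FPKM. After 6 h of imatinib they read 1.80, 1.24 and 2.11 FPKM, and after 6 h of JQ1 86.1, 89.7 and 95.9 FPKM. At that time the drugs thus lay on opposite sides of DMSO with no overlap: the mean was 11.6-fold lower with imatinib, 4.57-fold higher with JQ1, and 52.8-fold higher with JQ1 than with imatinib. These 6 h values are what the gene was chosen on and carry no test. The opposite signs were also there after ratio rescaling, where the changes from DMSO on the log2(FPKM + 1) scale were -2.03 and 3.21.

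By 24 h CTGF was below DMSO in every treated library. Imatinib libraries read 0.274, 0.201 and 0.338 FPKM, JQ1 libraries 3.0, 3.45 and 4.22 FPKM, and libraries with both drugs 0.825, 1.42 and 0.906 FPKM. None of the 3 treated groups overlapped another, and the combination lay between the single drugs. Relative to DMSO the mean was 73.2-fold lower with imatinib, 5.57-fold lower with JQ1 and 18.9-fold lower with both. CTGF fell in all 3 comparisons (limma, adjusted p = 5.7e-15, 6.79e-11 and 2.76e-14), by 4.01 ± 0.17, 2.17 ± 0.17 and 3.33 ± 0.17 (SE) on the log2(FPKM + 1) scale. After ratio rescaling the values were -2.70, -0.65 and -1.45, and the call for JQ1 alone was lost. The JQ1 libraries had gone from 4.57-fold above DMSO at 6 h to below it at 24 h, a 25.4-fold difference between the times.

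CYR61, the close relative of CTGF, lay on the same side of imatinib but overlapped DMSO under JQ1 at 6 h. DMSO libraries read 12.5, 16.0 and 19.7 FPKM, imatinib libraries at 6 h 3.80, 3.92 and 4.39 FPKM, and JQ1 libraries at 6 h 15.7, 16.4 and 18.3 FPKM. Imatinib and DMSO did not overlap, and JQ1 and DMSO did. With imatinib CYR61 fell by 1.74 ± 0.16 on the log2 scale (limma, adjusted p = 7.29e-09), and with JQ1 the change was 0.08 ± 0.16 (adjusted p = 0.62). Because most genes were lower with JQ1, 97% of tested genes had a lower change than CYR61, and the ratio-rescaled value of 1.12 passed as a rise. The rescaled imatinib value, -0.96, did not reach the size required.

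At 24 h CYR61 was low in all 3 treated groups. The libraries read 1.08, 1.12 and 1.08 FPKM with imatinib, 2.21, 3.01 and 3.26 FPKM with JQ1, and 1.43, 2.20 and 1.54 FPKM with both. The groups ranked as for CTGF, imatinib lowest and JQ1 highest, with no overlap between neighbours. CYR61 fell by 3.01 ± 0.16, 2.15 ± 0.16 and 2.64 ± 0.16 (limma, adjusted p = 1.63e-13, 2.75e-11 and 3.22e-13). Rescaled values were -1.58, -0.66 and -0.65, of which the first alone remained a call.

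AMOTL2, the angiomotin-like scaffold that binds YAP and activates LATS kinases, passed the test at 24 h and not at 6 h. Its libraries read 31.0, 35.9 and 48.2 FPKM in DMSO, 22.6, 21.1 and 26.7 FPKM after 6 h of imatinib, and 5.55, 5.89 and 6.36 FPKM after 24 h of imatinib. JQ1 libraries read 24.8, 24.7 and 24.7 FPKM at 6 h and 9.46, 10.9 and 12.7 FPKM at 24 h, and libraries with both drugs 6.80, 13.5 and 8.25 FPKM. All treated libraries lay below all DMSO libraries, the drugs overlapped at 6 h, and at 24 h the imatinib libraries were lowest. The 6 h changes of -0.67 and -0.59 were below the size required and became 0.08 and 0.51 after ratio rescaling, and AMOTL2 fell by 2.48 ± 0.20, 1.70 ± 0.20 and 1.93 ± 0.20 at 24 h with imatinib, JQ1 and both (limma, adjusted p = 7.77e-11, 3.2e-08 and 2.41e-09). Rescaled, these were -0.85, -0.07 and 0.37, with no call, and the last turned sign.

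LATS2, the kinase that phosphorylates YAP and TAZ, was lower with JQ1 than with imatinib at both times. DMSO libraries read 52.5, 57.5 and 73.4 FPKM, imatinib libraries 33.7, 33.3 and 38.4 FPKM at 6 h and 27.9, 32.0 and 30.2 FPKM at 24 h. JQ1 libraries read 24.8, 24.9 and 26.7 FPKM at 6 h and 14.3, 16.1 and 18.1 FPKM at 24 h, and libraries with both drugs 8.07, 14.3 and 9.69 FPKM. At each time the JQ1 libraries lay below the imatinib libraries with no overlap, and those with both drugs overlapped JQ1 alone. The differences between the drugs, -0.45 at 6 h and -0.86 at 24 h, were no calls, beside medians of -0.30 and 0.04 for all tested genes. LATS2 fell by 1.22 ± 0.18, 1.85 ± 0.18 and 2.43 ± 0.18 with JQ1 at 6 h, at 24 h and with both (limma, adjusted p = 1.91e-06, 1.82e-09 and 9.12e-12). After ratio rescaling these were -0.10, -0.20 and -0.10, and all 3 calls were lost. With imatinib its changes of -0.77 and -0.99 did not reach the size required. The 24 h value of -0.99 passed it without DMSO replicate 1 (-1.09), without DMSO replicate 2 (-1.03) or without imatinib replicate 2 (-1.04), and became 0.71 after ratio rescaling.

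YAP1 and WWTR1, the paired coactivators, differed under imatinib, where WWTR1 fell and YAP1 gave no call. YAP1 read 34.1, 39.8 and 49.6 FPKM in DMSO, 25.3, 24.4 and 27.8 FPKM after 6 h of imatinib and 21.9, 24.8 and 23.6 FPKM after 24 h. WWTR1 read 88.3, 106 and 129 FPKM in DMSO, 42.6, 38.4 and 44.5 FPKM after 6 h of imatinib and 24.0, 27.8 and 25.9 FPKM after 24 h. YAP1 thus overlapped between the imatinib times and WWTR1 did not. Its changes of -0.64 and -0.77 were no call at either time, and became 0.11 and 0.91 after rescaling. WWTR1 fell by 1.33 ± 0.19 at 6 h and 2.00 ± 0.19 at 24 h (limma, adjusted p = 3.03e-06 and 8.92e-10), which rescaling reduced to -0.56 and -0.29 with no call.

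Under JQ1 both coactivators were lower already at 6 h. YAP1 read 16.2, 14.5 and 16.9 FPKM at 6 h and 12.4, 13.6 and 16.3 FPKM at 24 h of JQ1, and WWTR1 30.4, 27.2 and 31.6 FPKM and 19.8, 22.2 and 23.5 FPKM. With both drugs YAP1 read 7.29, 13.1 and 9.93 FPKM and WWTR1 13.0, 24.1 and 17.6 FPKM, overlapping JQ1 alone for each gene. YAP1 fell by 1.31 ± 0.18, 1.47 ± 0.18 and 1.94 ± 0.18 in these 3 groups (limma, adjusted p = 8.58e-07, 7.06e-08 and 4.92e-10) and WWTR1 by 1.81 ± 0.19, 2.24 ± 0.19 and 2.52 ± 0.19 (adjusted p = 1.44e-08, 1.84e-10 and 9.32e-12). None of these 6 remained a call after rescaling; WWTR1 kept a negative sign (-0.68, -0.56 and -0.15), while YAP1 read -0.20, 0.16 and 0.37.

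TEAD4 encodes a DNA-binding partner of YAP and TAZ and was lower in every treated library than in DMSO. Its libraries read 17, 22.4 and 26.0 FPKM in DMSO, then 6.20, 5.90 and 7.75 FPKM after 6 h of imatinib and 6.22, 5.88 and 7.52 FPKM after 6 h of JQ1. At 24 h they read 0.933, 0.974 and 1.21 FPKM with imatinib, 1.76, 1.91 and 2.43 FPKM with JQ1 and 0.863, 1.31 and 0.781 FPKM with both. The drugs overlapped at 6 h, and at 24 h JQ1 lay above imatinib while imatinib and the combination overlapped. The means were 3.30- and 3.33-fold below DMSO at 6 h, and 21.0-, 10.7- and 22.1-fold below it at 24 h with imatinib, JQ1 and both.

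TEAD4 fell in all 5 comparisons with DMSO (limma). The log2 changes were -1.57 ± 0.16 and -1.58 ± 0.16 at 6 h (adjusted p = 3.74e-08 and 1.0e-08) and -3.47 ± 0.16, -2.90 ± 0.16 and -3.51 ± 0.16 at 24 h (adjusted p = 2.09e-14, 3.08e-13 and 4.41e-15). The 6 h values were -0.80 and -0.50 after ratio rescaling, and both calls were lost. At 24 h it was the only gene of the 8 called in all 3 groups after ratio rescaling, with values of -2.01, -1.40 and -1.64. Before rescaling, 1.71%, 3.16% and 5.43% of all tested genes had a lower change in those groups. After it the shares were 1.28%, 2.83% and 3.48%.

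TEAD1, the other TEAD factor of the list, was lower in every treated library and its changes lay near the median of all tested genes. DMSO libraries read 15.7, 17.1 and 23.0 FPKM. The 6 h libraries lay between 8.54 and 9.71 FPKM with imatinib and between 8.40 and 9.47 FPKM with JQ1, and those at 24 h between 4.24 and 4.93 FPKM with imatinib, 4.94 and 6.01 FPKM with JQ1 and 2.48 and 4.13 FPKM with both. TEAD1 fell by 1.79 ± 0.16, 1.59 ± 0.16 and 2.21 ± 0.16 at 24 h (limma, adjusted p = 4.58e-10, 3.19e-09 and 6.16e-12). Rescaled, these were -0.22, -0.04 and -0.09, with no call. The 6 h changes of -0.93 and -0.94 were below the size required, and without DMSO replicate 1 they were -1.04 and -1.05 and passed.

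Counted over the genes that could be tested, a call being an adjusted p below 0.05 with a log2 change of at least 1 in size, many of the genes fell, as did much of the transcriptome. After 6 h of imatinib 3 of 7 genes fell (CYR61, WWTR1 and TEAD4), beside 20% of all tested genes, and after 6 h of JQ1 4 of 7 fell (LATS2, YAP1, WWTR1 and TEAD4), beside 49.8%. At 24 h, with CTGF included, 6 of 8 fell with imatinib, beside 72.1%, 8 of 8 with JQ1, beside 75.3%, and 8 of 8 with both, beside 86%. None of the tested values was a rise against DMSO, beside rises of 0.384%, 0.642%, 0.642%, 0.399% and 0.235% of all tested genes in these 5 comparisons. After ratio rescaling the counts in either direction were 0 and 1 at 6 h (the 1 being the rise of CYR61 with JQ1), beside 3.3% and 5.03% of all tested genes. At 24 h they were 3, 1 and 2, all falls, beside 17.5%, 11.7% and 19.3%.

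**Figure D2:**
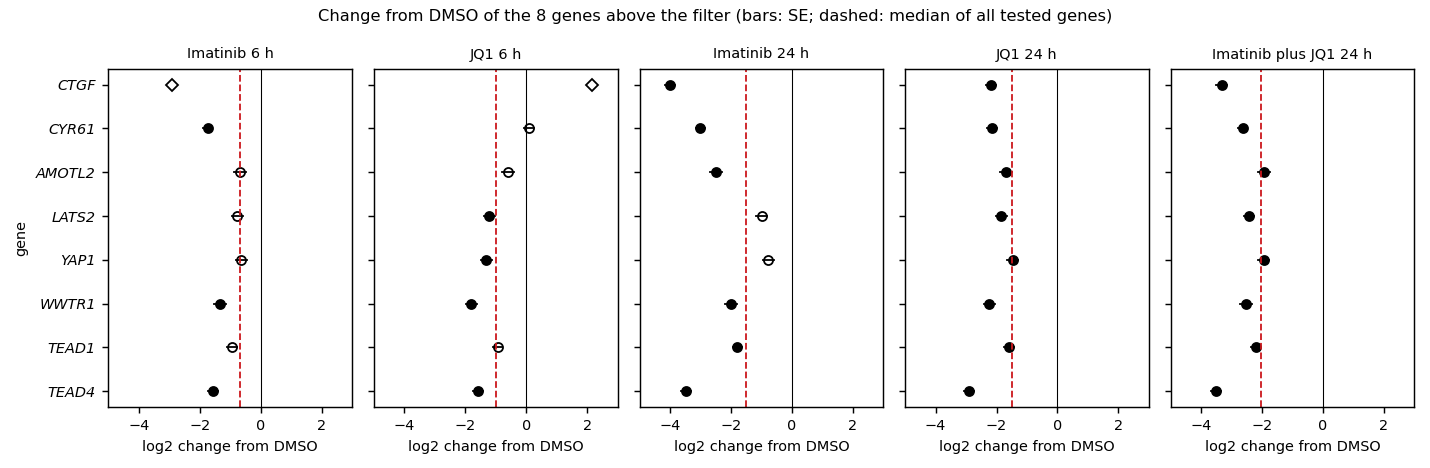
Log2(FPKM + 1) change from DMSO of the 8 genes above the filter, with SE bars; filled circles passed the test, open circles did not, open diamonds are CTGF at 6 h with no test, and the red dashed line is the median of all tested genes. CTGF sits at 2.16 after 6 h of JQ1 and at -4.01 after 24 h of imatinib, and YAP1 and LATS2 lie right of the median after 24 h of imatinib, where ratio rescaling turned their values positive.

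With the drugs set against each other at 6 h, CYR61 was 4.17-fold higher with JQ1 than with imatinib, a rise of 1.82 ± 0.16 (limma, adjusted p = 4.84e-09). It was the 1 gene of 7 called, beside 11.3% of all tested genes in either direction and 1.95% that rose, and 99.3% of tested genes had a lower difference. Rescaled, the difference was 2.08. LATS2, YAP1 and WWTR1 were each lower with JQ1 with no overlap, by -0.45, -0.67 and -0.48, short of the size required. The median of all tested genes in this comparison was -0.30. Of all tested genes 37.0%, 21.9% and 34.7% had a lower difference than LATS2, YAP1 and WWTR1. After ratio rescaling YAP1 was -0.31 and WWTR1 -0.12, both no calls. The share of all tested genes with no overlap was not counted. AMOTL2, TEAD1 and TEAD4 overlapped between the drugs, with differences of 0.08, -0.01 and -0.01.

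At 24 h CTGF, tested here, was 13.1-fold higher with JQ1 than with imatinib and rose by 1.84 ± 0.17 (limma, adjusted p = 1.56e-08), or by 2.05 after rescaling. It was the 1 gene of 8 called, beside 8.47% of all tested genes in either direction and 3.59% that rose. The JQ1 libraries of CYR61, AMOTL2, TEAD1 and TEAD4 were also above the imatinib libraries with no overlap, with differences of 0.86, 0.79, 0.20 and 0.57 that were no calls. LATS2, YAP1 and WWTR1 lay the other way with no overlap, at -0.86, -0.70 and -0.24, also no calls. CTGF, CYR61, AMOTL2, TEAD1 and TEAD4 thus stood on the opposite side from LATS2, YAP1 and WWTR1, while the median of all tested genes was 0.04. Only CTGF was called, and how many of all tested genes did not overlap was not counted.

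With both drugs for 24 h LATS2 and YAP1 were lower than with imatinib alone. LATS2 fell by 1.44 ± 0.18 and YAP1 by 1.17 ± 0.18 relative to imatinib alone (limma, adjusted p = 6.61e-07 and 1.17e-05), 2 of 8 genes beside 15% of all tested genes, and the YAP1 value without combination replicate 1 was -0.98 and no call. After ratio rescaling LATS2 was -0.81 and YAP1 -0.54, and both calls were lost. CTGF was 3.88-fold and AMOTL2 1.60-fold higher with both drugs than with imatinib alone, with no overlap, and their log2 differences of 0.68 and 0.55 were no calls. The median of all tested genes was -0.50, and rescaled they were 1.24 and 1.22 and passed as rises, beside 2.37% of all tested genes that rose. Combination replicate 2 had a total of 499857 FPKM against 286566 and 355558 in the other combination libraries, and for all 8 genes above the filter it was the highest of the 3.

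Adding imatinib to JQ1 for 24 h changed CTGF. It fell by 1.15 ± 0.17 relative to JQ1 alone (limma, adjusted p = 2.87e-05), 3.38-fold in the means, and was the 1 gene of 8 called beside 7.4% of all tested genes. Rescaled it was -0.80 and no call. AMOTL2, LATS2, YAP1 and WWTR1 overlapped between the combination and JQ1 alone. CYR61, TEAD1 and TEAD4 did not, with differences of -0.49, -0.63 and -0.62 that were no calls. These lay near the median of all tested genes, -0.54, and were 0.0057, -0.05 and -0.24 after ratio rescaling. How many of all tested genes did not overlap was not counted.

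The change with both drugs was compared with the sum of the single-drug changes on the log2(FPKM + 1) scale, an interaction that is positive when both together lowered a gene by less than that sum. It was positive and passed the test for 6 of 8 genes (limma): CTGF 2.86 ± 0.24, TEAD4 2.85 ± 0.22, CYR61 2.51 ± 0.22, AMOTL2 2.25 ± 0.28, WWTR1 1.71 ± 0.26 and TEAD1 1.16 ± 0.22, with adjusted p between 1.5e-09 and 0.000108. Of all tested genes 47.7% were called and 46.8% were positive, with a median of 0.95. YAP1 and LATS2 gave 0.30 ± 0.25 and 0.41 ± 0.25 (adjusted p = 0.277 and 0.14), and were -0.70 and -0.61 after rescaling. The scale has a floor: the single-drug changes would add up to -1.83 for CTGF, -1.08 for CYR61 and -1.87 for TEAD4, below the lowest possible value of 0, so for these 3 genes no sum of that size could have been measured. For AMOTL2, WWTR1 and TEAD1 the sums of 1.10, 2.51 and 0.90 could have been reached. After ratio rescaling CTGF, TEAD4, CYR61 and AMOTL2 remained calls, at 1.89, 1.78, 1.58 and 1.29, beside 10.7% of all tested genes.

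Between 6 h and 24 h of the same drug, CYR61, AMOTL2 and TEAD4 fell under each. With imatinib the later level was lower by a log2 change of -1.26 ± 0.16, -1.81 ± 0.20 and -1.90 ± 0.16 (limma, adjusted p = 4.09e-07, 6.84e-08 and 1.48e-09), 3 of 7 genes beside 33.9% of all tested genes. With JQ1 it was lower by -2.23 ± 0.16, -1.10 ± 0.20 and -1.31 ± 0.16 (adjusted p = 4.6e-10, 7.63e-05 and 7.31e-07), 3 of 7 beside 14.7%. Only TEAD4 with imatinib, at -1.21, and CYR61 with JQ1, at -1.78, were still called after ratio rescaling, beside 8.36% and 6.12% of all tested genes. YAP1 overlapped between the times with each drug, at -0.13 and -0.16, both of which turned positive after rescaling (0.79 and 0.36).

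Ratios of genes within a library do not depend on how libraries are scaled to each other. WWTR1 to YAP1 was 2.62 ± 0.05 in DMSO (SD, n = 3), 1.62 ± 0.06 after 6 h and 1.10 ± 0.02 after 24 h of imatinib, so YAP1 and WWTR1 had nearly equal levels there. With JQ1 it was 1.88 ± 0.0026 at 6 h and 1.56 ± 0.10 at 24 h, and with both 1.80 ± 0.04, and every treated library was below every DMSO library. TEAD4 to TEAD1 went from 1.18 ± 0.12 in DMSO to 0.722 ± 0.066 with imatinib and 0.721 ± 0.077 with JQ1 at 6 h, and to 0.226 ± 0.031, 0.371 ± 0.029 and 0.307 ± 0.048 at 24 h with imatinib, JQ1 and both. The TEAD4 share was thus lower at the later time with each drug, with no overlap between times.

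The ratio of the 2 targets separated the groups further, although its 6 h values rest on the choice of CTGF. CTGF to CYR61 was 1.23 ± 0.06 in DMSO, 0.423 ± 0.093 with imatinib and 5.39 ± 0.14 with JQ1 at 6 h. The later imatinib libraries averaged 0.249 ± 0.067, those of JQ1 1.27 ± 0.11 and those of the combination 0.604 ± 0.036. At 24 h JQ1 overlapped DMSO, imatinib was lowest and the combination lay between. AMOTL2 to LATS2, both targets and inhibitors, was 0.624 ± 0.033 in DMSO and 0.198 ± 0.014 after 24 h of imatinib, against 0.682 ± 0.021 with JQ1 and 0.879 ± 0.054 with both. No imatinib library at 24 h overlapped any other group in this ratio. No test was run on these ratios.

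**Figure D3:**
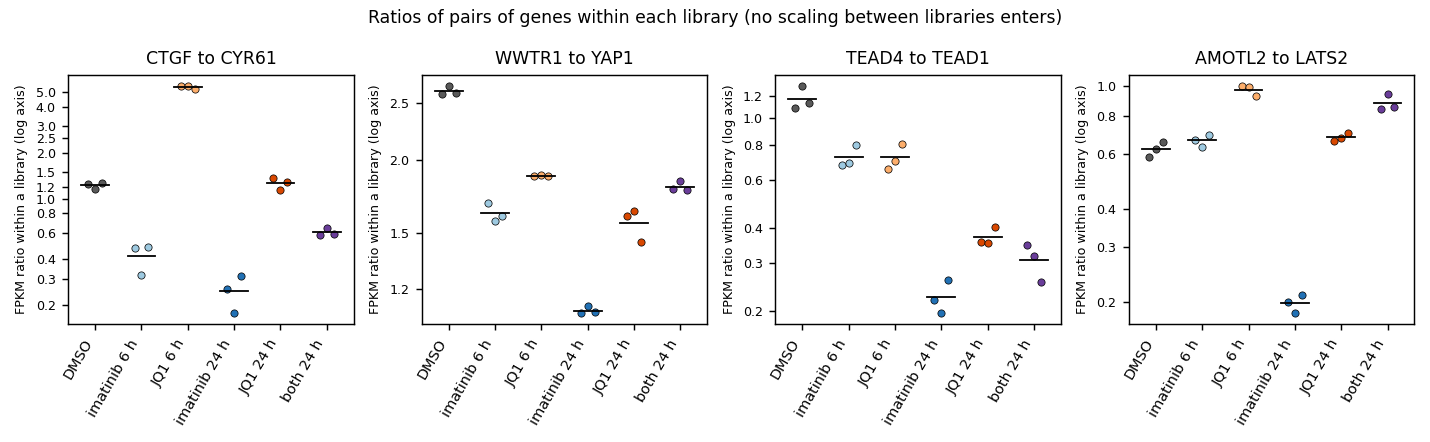
Ratio of FPKM values within each library (log axes, each panel with its own range) for 4 pairs of genes; points are libraries and bars are means of 3. After 24 h of imatinib WWTR1 to YAP1 is 1.10 against 2.62 in DMSO, TEAD4 to TEAD1 is 0.226 against 1.18, and AMOTL2 to LATS2 is 0.198 against 0.624.

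In a published signature of YAP and TAZ targets, the share of genes that fell was near that of all tested genes or below it. Apart from the 10 genes the signature lists 17, of which 14 passed the filter: at 6 h 3 fell with imatinib and 7 with JQ1, at 24 h 7 and 10 fell with the same drugs, and 12 fell with both, with 0 rises. Of all tested genes 20%, 49.8%, 72.1%, 75.3% and 86% fell in these 5 comparisons. The median changes of the 14 genes were -0.34, -0.88, -0.93, -1.5 and -1.77, beside -0.69, -1.0, -1.5, -1.49 and -2.05 for all tested genes. After ratio rescaling 1 fell in each single-drug group and 2 with both, and 0, 1, 2, 1 and 1 rose. F3, which encodes tissue factor, fell by 1.81 ± 0.12 and 2.46 ± 0.12 at 6 h and 24 h of imatinib, and ASAP1, an Arf GTPase-activating protein, by 1.16 ± 0.18 and 2.23 ± 0.18. After ratio rescaling F3 kept its calls (-1.02 and -1.38), and ASAP1 lost them (-0.39 and -0.58). PTPN14, a phosphatase that binds YAP, fell by 1.01 ± 0.15 after 6 h of imatinib, or -0.30 and no call after rescaling. The signature count of 3 after 6 h of imatinib was 1 without DMSO replicate 3. The call of PTPN14 was lost without DMSO replicate 3 (-0.88), imatinib replicate 1 (-0.99) or imatinib replicate 2 (-0.93), and the call of ASAP1 without DMSO replicate 3 (-0.99).

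With JQ1 the signature genes of largest change at 6 h were others. FJX1, FOXF2 and MYOF fell by 2.37 ± 0.18, 1.72 ± 0.16 and 1.33 ± 0.18 after 6 h of JQ1, which rescaling left at -1.29 with a call and at -0.76 and -0.21 without one. Set against imatinib at 6 h, FJX1 and FOXF2 fell (-1.96 ± 0.18 and -1.90 ± 0.16) and GADD45A, a growth-arrest and DNA-damage gene, rose (1.13 ± 0.21), 3 of 14 genes where 9.36% of all tested genes fell and 1.95% rose. At 24 h GADD45A again rose with JQ1 over imatinib (1.53 ± 0.21), as CTGF did, while IGFBP3, CCDC80 and FOXF2 fell (-2.08 ± 0.15, -1.62 ± 0.18 and -1.25 ± 0.16), where 4.88% of all tested genes fell. Under both drugs MYOF, a membrane-repair ferlin, fell by 3.67 ± 0.18. All of these are limma calls at the adjusted p and size given above.

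**Figure D4:**
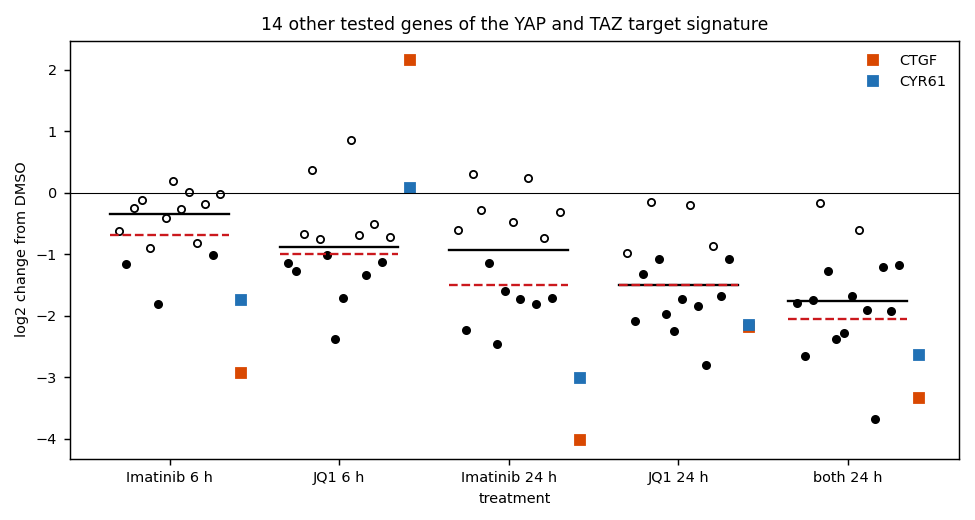
Log2(FPKM + 1) change from DMSO of the 14 other signature genes that passed the filter (circles, filled where the test was passed), with CTGF and CYR61 as squares beside them. Black bars are the medians of the 14 genes and red dashed lines those of all tested genes. CTGF lies below all 14 after 6 h and 24 h of imatinib and above all 14 after 6 h of JQ1. Its 6 h values are what it was chosen on, so its 6 h places are a description only.

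Of 34 Hippo kinases and regulators listed apart from the 10 genes, 32 passed the filter, and 9 and 15 fell at 6 h with imatinib and JQ1 and 29, 27 and 29 at 24 h with imatinib, JQ1 and both, with 0 rises. Beside them fell 20% and 49.8% of all tested genes at 6 h, and 72.1%, 75.3% and 86% at 24 h. The medians of the 32, -0.84, -0.96, -1.60, -1.62 and -2.05, lay beside -0.69, -1.0, -1.5, -1.49 and -2.05 for all tested genes. The count of 9 after 6 h of imatinib was 14 without DMSO replicate 1 and 3 without DMSO replicate 3. After ratio rescaling 1, 0, 1, 1 and 1 fell and 1, 1, 1, 2 and 2 rose, where 3.3%, 5.03%, 17.5%, 11.7% and 19.3% of all tested genes were called. WWC1 (KIBRA), which activates the LATS kinases, fell in all 5 groups, by 1.81 ± 0.13 and 1.77 ± 0.13 at 6 h and 2.51 ± 0.13, 2.38 ± 0.13 and 2.86 ± 0.13 at 24 h. Its rescaled values were -1.03, -0.74, -1.14, -1.01 and -1.20, of which the one for JQ1 at 6 h was no call. WWC3 fell by 1.63 ± 0.17 after 6 h of imatinib, and AJUBA, a LIM protein that restrains LATS, by 1.79 ± 0.16 after 6 h of JQ1, and rescaled both were no calls (-0.85 and -0.76). Between the drugs at 6 h, AJUBA and AMOT were among the genes that fell with JQ1 (-1.51 ± 0.16 and -1.49 ± 0.17). STRIP2, of the STRIPAK phosphatase complex, was the 1 gene that rose (1.46 ± 0.13). Of all tested genes 9.36% fell and 1.95% rose in that comparison. STRIP2 was also higher with JQ1 than with imatinib at 24 h, where it rose by 1.40 ± 0.13, beside 3.59% of all tested genes. AMOT, singled out after its values were seen, was higher after 6 h of imatinib: 6.92 ± 1.58 FPKM in DMSO and 14.5 ± 1.24 FPKM after 6 h, a log2 change of 0.99 ± 0.17 just under the required size, or 1.56 after rescaling. It passed without DMSO replicate 3 (1.14) or imatinib replicate 2 (1.05).

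Of the other TEAD and VGLL genes, 3 of 6 passed the filter, and 0, 3, 1, 3 and 3 of them fell in the 5 comparisons with DMSO, beside 20%, 49.8%, 72.1%, 75.3% and 86% of all tested genes. The count of 0 was 1 without DMSO replicate 1, when TEAD2 passed at -1.09. TEAD2 was as abundant as WWTR1 in DMSO, at 105 ± 21.4 FPKM, and it fell after 6 h of JQ1 (-1.54 ± 0.19) and at 24 h with imatinib, JQ1 and both (-2.28 ± 0.19, -2.37 ± 0.19 and -3.32 ± 0.19), of which none was a call after ratio rescaling. VGLL4, which competes with YAP for TEAD, gave -0.56 ± 0.18 after 24 h of imatinib with no call, and 1.11 after rescaling. Among the other CCN genes 1 of 4 passed, WISP1, and its order of the drugs was the reverse of that of CTGF. WISP1 stood at 29.6 ± 4.33 FPKM in DMSO, 4.24 ± 0.315 FPKM after 24 h of imatinib and 0.360 ± 0.044 FPKM after 24 h of JQ1. Between the drugs at 24 h WISP1 fell by 1.94 ± 0.14 with JQ1 (limma, adjusted p = 2.64e-10), while CTGF rose by 1.84. Of the ankyrin relatives of ANKRD1, 1 of 2 reached 1 FPKM in DMSO.

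By Pearson correlation of log2(FPKM + 1), less the median of each library, over 18 libraries, the genes most like CTGF among 9000 were RHOB (r = 0.993), PITPNA (0.985), CYR61 (0.979), DYNLL1 (0.978) and DYNLL2 (0.977). Those most like CYR61 were TMEM104 (0.981), DNAJB1 (0.980) and GPR125 (0.980), with CTGF next at 0.979. RHOB averaged 79.7 FPKM in DMSO, 25.4 FPKM with imatinib and 119 FPKM with JQ1 at 6 h, and 12.5, 24.5 and 13.7 FPKM at 24 h with imatinib, JQ1 and the combination. Its mean, like that of CTGF, was above DMSO after 6 h of JQ1 and in no other treated group. Within the 10 genes CTGF had r = 0.88 with TEAD1 and -0.74 with YAP1, and LATS2 had 0.78 with YAP1. Other pairs had values of like size, such as CYR61 with TEAD1 (0.88), AMOTL2 with YAP1 (-0.87) and TEAD4 with YAP1 (-0.83). Every correlation with CTGF includes the 6 h values it was chosen on. All these correlations are descriptions across libraries that share treatments.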

How the data were processed

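Polyadenylated RNA was taken from 18 libraries of GIST-T1 cells. Per the labels' protocols, RNA was normalised to cell number, ERCC spike-ins were added, and stranded libraries were sequenced as single reads of 75 bases. STAR, Cufflinks and hg19 are named in the submitters' processing notes, with versions not given in the sources used here. The deposited table holds FPKM values made by the authors, with 23713 rows, of which 92 are spike-ins and 28 have names turned into dates. No source used here says how the authors scaled libraries to the spike-ins, and the read depth is unknown. The column headers give samples by group and replicate, and 1 column of JQ1 at 24 h was mapped to its group without a replicate number.

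The 12771 genes that reached 1 FPKM in 3 or more libraries were fitted on log2(FPKM + 1) with limma 3.58.1 (R 4.3.3, trend), with 1 mean per group over all 18 libraries. P-values were adjusted by Benjamini and Hochberg over all tested genes in each of 12 comparisons, and a call needed an adjusted p below 0.05 and a log2 change of at least 1. Fold changes on this scale understate changes of low genes. All 10 genes are named; from each list the called genes of largest size, at most 4 per comparison, are named. Some called genes of the lists are not reported here. The genes and lists were chosen with earlier results of these data known. In simulated data for imatinib at 6 h over 12771 genes, 98% of genes given a log2 change of -1.5 were recovered, and 1 of 12571 unchanged genes was called. The simulation drew the spread of each gene on its own, with no shift shared by a whole library. In the real data, leaving out DMSO replicate 3 or 1 moved the calls for imatinib at 6 h from 2608 to 1675 or 4011. The simulated rates therefore do not carry over to shifts of that kind. Replicate numbers were checked for pairing: 40 same-numbered pairs of libraries had a median correlation of deviations of -0.03, and the numbers were not used. Alternatives were another pseudocount (0.1), other filters, 2 rescalings (by ratios, and to one total without MIR1244), a replicate block, fits of only the groups compared, and leaving out each library.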

Additional observations from a re-analysis of the deposited data

Results flagged for a closer look

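For 6 of the 8 genes the effect of JQ1 at 24 h differed between cells with and without imatinib, by limma's test of the difference itself. In the same test 47.7% of all tested genes were called, and 46.8% were called as positive. The JQ1 effect with imatinib minus that without was 2.86 for CTGF, 2.51 for CYR61, 2.25 for AMOTL2, 1.71 for WWTR1, 1.16 for TEAD1 and 2.85 for TEAD4 on the log2(FPKM + 1) scale, beside a median of 0.95 over all tested genes. After ratio rescaling the values for CTGF, CYR61, AMOTL2 and TEAD4 (1.89, 1.58, 1.29 and 1.78) passed the test, and those for WWTR1 and TEAD1 (0.71 and 0.17) did not. Of all tested genes 10.7% were called after that rescaling, and the floor of the scale was not checked for the rescaled values. With a pseudocount of 0.1, the sum of the single-drug changes was still below the lowest possible value of -3.32 for CTGF. It was above that value for CYR61 (-2.21) and, by little, for TEAD4 (-3.17). No value in any library was below 0.0383 FPKM, which this lowest possible value does not take into account. Whether the TEAD4 sum could have been measured was not tested.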

How the results depend on the processing

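The 2 rescalings, which set libraries to a common typical gene (ratio) or to one total without MIR1244, changed the most: 50 of 192 values of the 8 genes turned direction under one of them. The cause was not tested. Given as ratio, then one total, the number of genes called went from 3 to 0 and 1 for imatinib at 6 h, from 4 to 1 and 0 for JQ1 at 6 h, from 6 to 3 and 3 for imatinib at 24 h, from 8 to 1 and 1 for JQ1 at 24 h, and from 8 to 2 and 2 with both drugs. For both drugs against imatinib it was 2, then 2 and 3, but LATS2 and YAP1 lost their calls (except LATS2 with one total, -1.03) while CTGF and AMOTL2 gained them. It went from 1 to 0 and 0 for both drugs against JQ1, from 3 to 1 and 1 between times for each drug, and for JQ1 against imatinib at 24 h from 1 to 2 with a pseudocount of 0.1 and 2 with one total.

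Values that turned direction are also given as ratio, then one total. For imatinib at 6 h they were AMOTL2 0.0808 and 0.0469 and YAP1 0.11 and 0.0793. For JQ1 at 6 h they were AMOTL2 0.51 and 0.27, and TEAD1 0.12 (ratio). For imatinib at 24 h they were LATS2 0.71 and 0.78, YAP1 0.91 and 0.99, and VGLL4 1.11 and 1.19. YAP1 was 0.16 and 0.0523 for JQ1 at 24 h, and with both drugs AMOTL2 and YAP1 were each 0.37 and 0.23. For JQ1 against imatinib at 6 h TEAD1 was 0.32 and 0.13 and TEAD4 0.30 and 0.12. For both drugs against imatinib TEAD4 was 0.37 and 0.25, WWTR1 0.14 and TEAD1 0.13 (ratio). For both against JQ1 they were CYR61 0.0057 (ratio), AMOTL2 0.44 and 0.41, LATS2 0.095 and 0.0618, YAP1 0.21 and 0.18, and WWTR1 0.41 and 0.38. Between the times of imatinib they were LATS2 0.72 and 0.83, YAP1 0.79 and 0.91, WWTR1 0.27 and 0.37, and TEAD1 0.0784 (one total). Between those of JQ1 they were LATS2 0.0328 (one total), YAP1 0.36 and 0.49, and WWTR1 0.11 and 0.24. In the interaction they were LATS2 -0.61 and -0.72 and YAP1 -0.70 and -0.81.

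Leaving out each library in turn, the number of genes called ran from 3 to 4 and from 4 to 5 for imatinib and JQ1 at 6 h, from 6 to 7 for imatinib at 24 h, and from 1 to 2 for both drugs against imatinib, the 1 being without combination replicate 1. CYR61 for JQ1 at 6 h ran from -0.0793 to 0.23, and for JQ1 against imatinib at 6 h TEAD1 ran from -0.0532 to 0.0385 and TEAD4 from -0.10 to 0.0907. TEAD4 for both drugs against imatinib ran from -0.16 to 0.0273. With the replicate number as a block the counts of genes called were 3, 4, 6, 8 and 8 against DMSO, the same as without it, and the numbers do not pair the libraries. The table holds no counts, so how far depth limits low values such as those of CTGF after 24 h of imatinib is unknown.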
